A study of Mus musculus with 2 samples.

Results

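Mir183, Mir96 and Mir182 are 3 microRNA genes that lie side by side on mouse chromosome 6 and form the cluster described here. They were taken by name, whatever their level, and all 3 had a row among the 1973 microRNA gene rows of the deposited tables. The tables come from whole kidneys of mouse embryos of strain B6NCrl at embryonic day 16.5, with both sexes pooled, labelled healthy and with no treatment or engineered allele named. The series holds 1 group of 2 libraries of small RNAs under 30 nucleotides, labelled biological replicates 1 and 2. Replicate 2 was made from 41 embryos, the sources used here give no pool size for replicate 1, and both tissue samples carry 1 donor record. Nothing therefore shows that the pools were independent, and every p-value below measures how far these 2 libraries lie apart, for technical or other reasons. Reads on the strand of the gene totalled 5317669 in replicate 1 and 7128703 in replicate 2 over all gene rows, and levels are given as counts per 1000000 of these (CPM).

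A microRNA gene is transcribed into a long primary RNA, cut to a hairpin and then to a mature RNA whose bases 2 to 8 from the 5′ end, the seed, pair with target messengers. The cluster is best known from sensory organs: its members are produced together in hair cells of the inner ear, in photoreceptors and in olfactory neurons, and changes in the seed of miR-96 cause hearing loss in mice and humans. Its members are also made in other epithelia, and FoxO transcription factors are among their known targets.

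The mature sequences are shown first because each member has a seed of its own. They are the 5′-arm products as RefSeq lists them on GRCm38.p6, with the seed in capitals.

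mmu-miR-183-5p: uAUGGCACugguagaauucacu

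mmu-miR-96-5p: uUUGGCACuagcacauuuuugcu

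mmu-miR-182-5p: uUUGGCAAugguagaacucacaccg

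Counted from 1 at the 5′ end, miR-183 and miR-96 differed at 1 seed base (A2U, miR-183 first), miR-96 and miR-182 at 1 seed base (C8A, miR-96 first), and miR-183 and miR-182 at both (A2U and C8A). Over the whole length, without gaps, miR-183 and miR-182 were identical at 18 of 22 positions, miR-183 and miR-96 at 13 of 22, and miR-96 and miR-182 at 12 of 23. With the seed left out, these counts were 13 of 15, 7 of 15 and 6 of 16, so miR-183 and miR-182, the pair that differed most in the seed, were the most alike in the rest. Among the 1738 mature mouse microRNAs of that table, no other carried the seed of miR-183-5p or of miR-182-5p. The seed of miR-96-5p occurred in 1 other, miR-1271-5p (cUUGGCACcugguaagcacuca). The gene listed for it, Gm24195, had 0 reads in both libraries, which allows up to 0.564 CPM in replicate 1 and 0.421 CPM in replicate 2.

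The hairpins, transcribed from the minus strand, are printed with both mature arms in capitals, since the deposited count of a gene adds up all reads on its hairpin and does not tell the arms apart.

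Mir183: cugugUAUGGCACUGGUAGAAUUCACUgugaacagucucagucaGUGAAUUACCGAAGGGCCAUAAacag

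Mir96: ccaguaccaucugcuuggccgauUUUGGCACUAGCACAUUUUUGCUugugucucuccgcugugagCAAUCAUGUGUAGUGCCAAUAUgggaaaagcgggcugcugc

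Mir182: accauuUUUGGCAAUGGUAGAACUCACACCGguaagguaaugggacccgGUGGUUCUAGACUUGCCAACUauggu

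On mm10 (GRCm38), GENCODE M21 places Mir183 on chromosome 6 from 30169668 to 30169737, Mir96 from 30169446 to 30169551 and Mir182 from 30165918 to 30165992. In the direction of transcription Mir183 comes first, Mir96 follows after 116 nucleotides and Mir182 after a further 3453. None of the 3 overlaps another annotated gene, so they are neither exonic nor intronic in this annotation. The nearest annotated gene is the long noncoding RNA Rncr4, which starts 3.155 kb from Mir183 on the opposite strand. The nearest protein-coding gene on each side is Nrf1, 12.459 kb beyond Mir182, and Ube2h, 41.551 kb from Mir183, and Gm25580, a gene annotated as miscellaneous RNA on the strand of the cluster, lies within Nrf1, 21.79 kb from Mir182. No stretch of 18 nucleotides of the 3 hairpins occurred in any of the 1004 other hairpins of the RefSeq table, and the longest run shared with one was 10 nucleotides. This matters because the gene rows leave out every read that maps to more than 1 place.

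**Figure D1:**
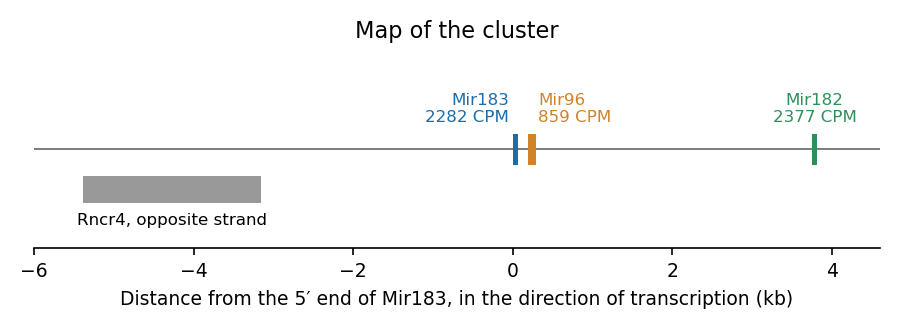
Map of the cluster to scale, with the distance in kb from the 5′ end of Mir183 along the direction of transcription on the horizontal axis, the 3 hairpins as coloured boxes with their mean CPM, and Rncr4 in grey on the opposite strand. Mir183 (2282 CPM) and Mir96 (859 CPM) lie 116 nucleotides apart, and Mir182 (2377 CPM) lies 3453 nucleotides beyond Mir96.

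All 3 members were well above the detection limit in both libraries. Mir183 held 12917 reads in replicate 1 and 15223 in replicate 2, which is 2429 CPM (exact 95% interval 2387 to 2471) and 2135 CPM (2102 to 2169.6). Mir96 held 4597 and 6081 reads, which is 864 CPM (839.7 to 889.8) and 853 CPM (832 to 875). Mir182 held 11303 and 18734 reads, which is 2126 CPM (2087 to 2165) and 2628 CPM (2591 to 2666). Mir183 was thus higher in replicate 1, Mir182 was higher in replicate 2, and the libraries nearly coincided for Mir96. The intervals are Clopper-Pearson intervals and take in the counting of reads alone, so they leave out spread between pools and preparations. Without molecular identifiers, which tell copies of 1 molecule from separate ones, they may also be too narrow for the counting of molecules. They did not overlap between libraries for Mir183 or Mir182, and did for Mir96.

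As means of both libraries, Mir182 stood at 2377 ± 355 CPM (SD, n = 2), Mir183 at 2282 ± 208 CPM and Mir96 at 859 ± 8.09 CPM. By mean level they ranked 54th, 56th and 85th of all genes, of which 387 reached 1 CPM in both libraries. The SD was 14.9% of the mean for Mir182, 9.10% for Mir183 and 0.942% for Mir96. Mir96, the member between the others on the chromosome, was therefore both the lowest and the one that differed least between libraries on the CPM scale.

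**Figure D2:**
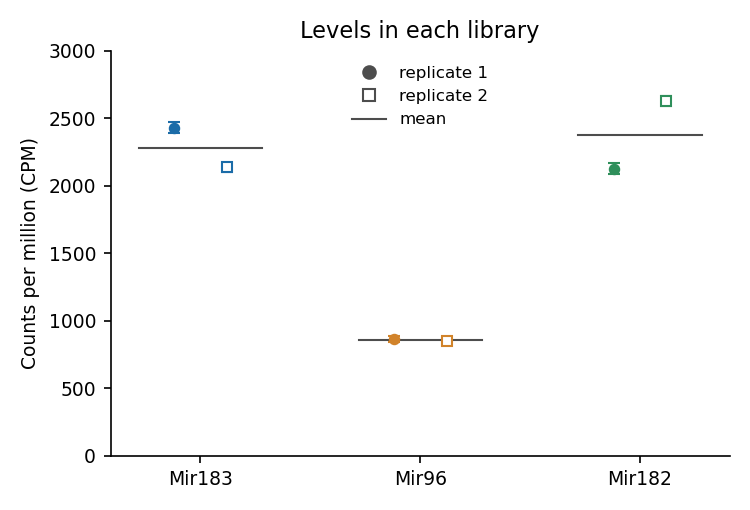
CPM of Mir183, Mir96 and Mir182 (vertical axis, from 0) in replicate 1 (filled circles) and replicate 2 (open squares), with exact 95% counting intervals as error bars and the mean of both libraries as a line. Mir183 lies above Mir182 in replicate 1 (2429 against 2126 CPM) and below it in replicate 2 (2135 against 2628 CPM), while Mir96 stays at 864 and 853 CPM.

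Mir96 was lower than both other members in each library. Mir182 stood 2.46-fold above Mir96 in replicate 1 and 3.08-fold in replicate 2, a mean log2 fold of 1.46 ± 0.23 (SD, n = 2) on log2(CPM + 1). Mir183 stood 2.81-fold and 2.50-fold above Mir96, a mean log2 fold of 1.41 ± 0.12. The pooled replicate SD of log2(CPM + 1) over the 181 genes whose mean reached 100 CPM was 0.22, so that folds above 1.34 exceeded the replicate spread, and both folds over Mir96 did. Divided by annotated hairpin length, which is 70 nucleotides for Mir183, 75 for Mir182 and 106 for Mir96, the levels were 3260 ± 297 CPM per 100 nucleotides for Mir183, 3169 ± 474 for Mir182 and 810 ± 7.64 for Mir96, so Mir96 was lowest on that scale too. A sequenced microRNA is read whole, so a longer hairpin does not by itself collect more reads, and the CPM scale is used below.

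The order of Mir182 and Mir183 was not the same in both libraries. In replicate 1 Mir182 had 0.875 reads for each read of Mir183, and in replicate 2 it had 1.23. The mean log2 fold of Mir182 over Mir183 was 0.05 ± 0.35 (SD, n = 2), well within the replicate spread, so these neighbours in rank cannot be placed in order. An exact sign-flip test of 2 libraries cannot go below p = 0.5 and was of no use for any of the 3 folds.

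Together the 3 genes held 28817 reads in replicate 1, or 0.542% of the total (exact 95% interval 0.536 to 0.548), and 40038 reads in replicate 2, or 0.562% (0.556 to 0.567). The mean share was 0.552% ± 0.0140 (SD, n = 2). The log2 ratio of replicate 2 to replicate 1 of the sum was 0.05 with library totals and -0.09 with the TMM scaling used below, so its direction depended on the scaling. Of the reads of the cluster, Mir183 took 44.8% in replicate 1 (44.2 to 45.4) and 38.0% in replicate 2 (37.5 to 38.5). Mir182 took 39.2% (38.7 to 39.8) and 46.8% (46.3 to 47.3). Mir96 took 16.0% (15.5 to 16.4) and 15.2% (14.8 to 15.5), close to the same part of the cluster in each.

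**Figure D3:**
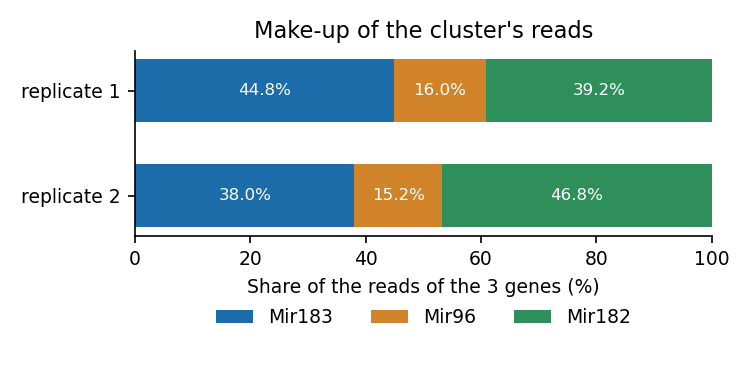
Share of the reads of the 3 genes (horizontal axis, percent) that fell on Mir183, Mir96 and Mir182, as 1 stacked bar per library. The part of Mir183 is 44.8% in replicate 1 and 38.0% in replicate 2, that of Mir182 39.2% and 46.8%, and that of Mir96 16.0% and 15.2%.

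The libraries were then compared gene by gene, which sets 1 pool against the other and no condition against another. Ratios of replicate 2 to replicate 1 used TMM factors of edgeR, which lower every log2 ratio by 0.14 relative to library totals, and a two-sided exact binomial test whose p-values were adjusted by Benjamini-Hochberg across the 455 genes with at least 10 reads. Mir182 was higher in replicate 2, with a log2 ratio of 0.16 (counting SE 0.02, adjusted p = 1.46e-20). Mir183 was lower, at -0.33 (counting SE 0.02, adjusted p = 4.64e-79), and Mir96 was lower, at -0.16 (counting SE 0.03, adjusted p = 5.83e-08). With library totals Mir96 stood at -0.02 and did not pass (adjusted p = 0.66 in the same test), so its call rests on the scaling, while the directions of Mir182 and Mir183 were the same with both.

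These calls take in counting error only, and calls of this kind were common. In the same test 33.6% of the 455 genes passed, 15.8% higher in replicate 2 and 17.8% lower, and 115 of the 181 genes at a mean of 100 CPM or more passed, or 63.5%. Among those 181 genes 18 had a larger absolute log2 ratio than Mir183, 65 a larger one than Mir96 and 63 a larger one than Mir182, and their median absolute log2 ratio was 0.13. When spread between pools was allowed for, by a biological coefficient of variation (BCV) of 0.2 or by one trended on abundance and estimated from these libraries, the edgeR exact test called 0.659% of the genes in either setting. None of the 3 members was among them (adjusted p = 1 for each in both settings). Their unadjusted p-values in the edgeR exact test with the trended BCV were 0.146 for Mir183, 0.521 for Mir96 and 0.470 for Mir182.

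**Figure D4:**
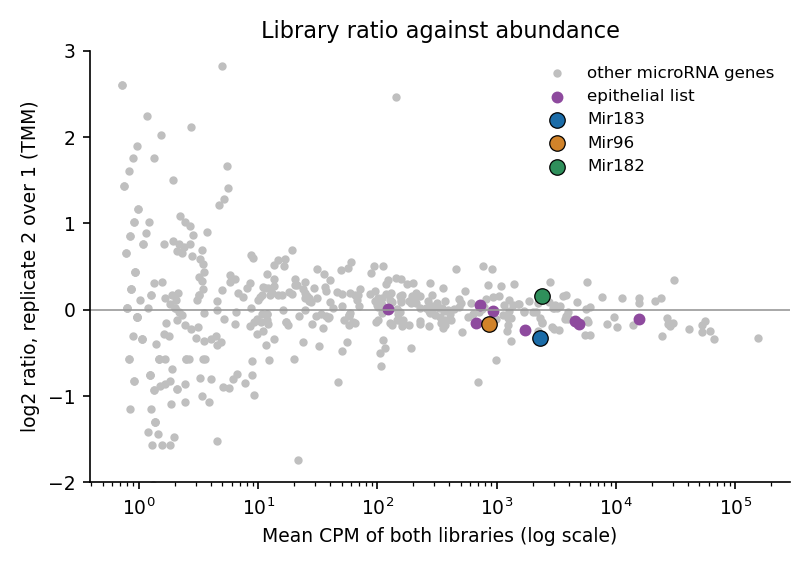
log2 ratio of replicate 2 over replicate 1 after TMM scaling (vertical axis) against mean CPM (horizontal log axis) for the tested genes with reads in both libraries. The 3 members and the epithelial list are in colour, and 6 genes lie beyond the axis limits. Mir183 (-0.33) and Mir182 (0.16) lie on opposite sides of 0 at almost the same abundance. With this scaling Mir96 (-0.16) lies within the range of the epithelial genes, from -0.23 for Mir203 to 0.06 for Mir205.

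A direct comparison of members does not depend on scaling. The log2 fold of Mir182 over Mir183 was higher in replicate 2 by 0.49 (95% counting interval 0.44 to 0.54, two-sided Fisher's exact test on the reads, adjusted p = 1.48e-90 over the 3 pairs). That of Mir182 over Mir96 was higher by 0.33 (0.26 to 0.39, Fisher's exact test, adjusted p = 1.39e-22), and that of Mir183 over Mir96 was lower, at -0.17 (-0.23 to -0.10, Fisher's exact test, adjusted p = 4.73e-07). All 3 differences therefore exceeded the noise of read counting. With the trended BCV, which was 0.110 for Mir182 and Mir183 and 0.123 for Mir96, the intervals widened to -0.13 to 1.12 for Mir182 against Mir183, to -0.34 to 0.99 for Mir182 against Mir96 and to -0.83 to 0.50 for Mir183 against Mir96. Each then included 0, so with 1 library a side the shift was not distinguishable from the spread that genes of this abundance showed between the pools. These wider intervals take the spread of the 2 genes of a pair as independent. If the 2 genes vary together between pools, the intervals are too wide, which was not tested.

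Other clusters give the scale of such a shift. MicroRNA genes of 1 strand at most 10000 nucleotides apart were joined into clusters, and pairs were taken from 1 cluster where both genes reached 100 CPM in both libraries, which gave 150 pairs in 27 clusters. The median absolute change of the log2 fold between libraries was 0.18 over these pairs. Mir182 with Mir183 ranked 12th at 0.49, Mir182 with Mir96 30th at 0.33 and Mir183 with Mir96 82nd at 0.17, while the highest value was 0.72, for Mir487b with Mir541. The order of the genes changed between libraries in 4 of the 150 pairs. Besides Mir182 with Mir183 these were Mir27a with Mir24-2, Mir134 with Mir154, and Mir382 with Mir369, which were listed after their values were seen. Pairs of 1 cluster share genes, and several clusters give many pairs, so the ranks are a description.

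**Figure D5:**
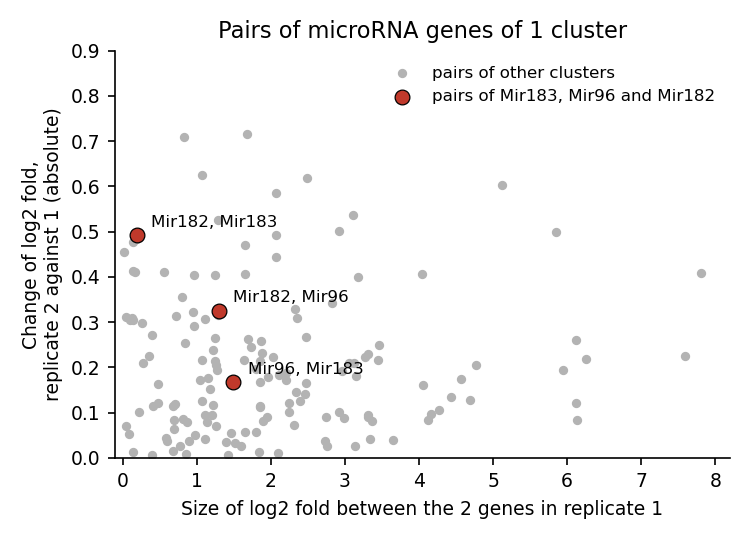
Absolute change of the log2 fold between the libraries (vertical axis) against the size of the log2 fold in replicate 1 (horizontal axis) for 150 pairs of microRNA genes of 1 cluster, with the 3 pairs of Mir183, Mir96 and Mir182 in red. Mir182 with Mir183 lies at the left, with little difference in level and a change of 0.49, above the median of 0.18.

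The range of levels within the cluster was the narrowest of the 4 clusters that could be compared in full. Of the 25 clusters with 3 or more genes, 4 had every gene at 100 CPM or more in both libraries. The highest member stood 2.75-fold above the lowest here (Mir182 over Mir96), against 15.7-fold in the cluster of Mir25, Mir93 and Mir106b, 16.8-fold in that of Mir200a, Mir200b and Mir429, and 76.0-fold in that of Mir23a, Mir27a and Mir24-2. The last fold is uncertain, since Mir24-2 and Mir24-1 give the same 3′ product, miR-24-3p, and reads of it that map to both are in no row. The log2 ratios of the libraries were also compared within each cluster, from the largest ratio to the smallest, whatever the level of the gene. They spanned 0.49 here (Mir182 and Mir183), 0.16 in the Mir25 cluster, 0.14 in the Mir200b cluster and 0.48 in the Mir23a cluster. Whether these 4 clusters differ beyond library spread was not tested. Clusters with a gene below 100 CPM were left out, and their genes above it could lie as close in level. The log2 fold of Mir92-2 over Mir106a was -1.65 in replicate 1 and -1.24 in replicate 2. That of Mir501 over Mir532 was -1.59 and -1.57. Each was the widest among the genes at 100 CPM or more of its cluster, so a narrow range was not particular to Mir183, Mir96 and Mir182. The fold with Mir92-2 may be uncertain in the same way as that with Mir24-2, since any reads that also map to Mir92-1 are in no row.

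Genes nearest in level were found by the distance of log2(CPM + 1) over the 2 libraries. For Mir183 these were Mir487b of chromosome 12, at 2301 and 2139 CPM (distance 0.08), and the X-linked Mir361, at 2269.6 and 2342 CPM (distance 0.17). For Mir182 they were Mir127, also of chromosome 12, at 2051 and 2391 CPM (distance 0.15), and again Mir361 (distance 0.19). For Mir96 they were Mir200a, a member of the epithelial miR-200 family, at 883 and 962 CPM (distance 0.18), and Mir301, at 737 and 834 CPM (distance 0.23). With 2 libraries, nearness in level says little about likeness of pattern.

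Kidneys at this stage hold branching epithelium of the ureteric bud, forming nephrons, stroma, vessels and blood, and the cells that held the cluster are not resolved in whole tissue, where fewer cells of a type and less RNA per cell cannot be told apart. Of the 8 listed epithelial microRNAs all 8 were detected, with summed levels of 28831 CPM in replicate 1 and 29324 CPM in replicate 2. The cluster summed to 5419 and 5616 CPM. The cluster of Mir200b, Mir200a and Mir429, which keeps cells epithelial by holding down Zeb1 and Zeb2, stood 3.89-fold and 3.83-fold above it. That of Mir200c and Mir141 summed to 5219 ± 30.6 CPM and stood at 0.959 and 0.933 of its level, within the replicate spread. Between libraries, in the exact binomial test with TMM, 5 of the 8 epithelial genes were lower in replicate 2 and 0 higher, with a median log2 ratio of -0.12 against 0.02 over all tested genes. Over all tested genes 17.8% were lower and 15.8% higher, and the 5 calls are near the 63.5% called in either direction among genes at 100 CPM or more. The split rests on the scaling: with library totals 1 was lower (Mir203, -0.09) and 3 were higher (Mir429, 0.04, Mir200a, 0.12, and Mir205, 0.20). With that scaling 193 of the 455 tested genes were called, 152 of them higher. Mir203, a microRNA of skin and other stratified epithelia, stood at 1762 and 1657 CPM and Mir205 at 667 and 768 CPM.

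Markers of other cell types were also compared, since the cluster is best known from neural and sensory cells. Of 10 neural and retinal genes with a row, 5 reached 1 CPM in both libraries. The 10 summed to 421 CPM in replicate 1 and 403 CPM in replicate 2. That was less than Mir96 alone, though reads that map to several places are missing from this sum. Mir204, which is made in retinal pigment epithelium and in kidney, gave 228 and 225 CPM of this and Mir137 gave 118 and 92.2 CPM. With TMM both were lower in replicate 2 in the exact binomial test, at log2 ratios of -0.16 and -0.50, and 0 of the 6 tested genes were higher. Over all tested genes 17.8% were lower and 15.8% higher, so so few genes show no direction of the list. With library totals Mir137 was still lower (-0.36), Mir204 did not pass (-0.02) and Mir128-1 was higher (0.26). Mir124a-2 and Mir124a-3 were at 0 and Mir124a-1 had 1 read, but the mature miR-124 comes from identical copies, so its reads map to several places and are missing from these rows. Mature miR-9 and miR-128 also come from more than 1 gene, so their rows (Mir9-3 with 17 and 12 reads) may be too low as well. The sum of the list therefore does not measure how much neural microRNA the tissue held. Of the 5 multiciliated-cell genes, 3 had reads enough to test and 1, Mir449a, was higher in replicate 2. It stood at 40.2 and 246 CPM and gave most of the change of the list, which summed to 513 and 784 CPM, while Mir34c (log2 ratio 0.03) and Mir34b (0.29) did not pass with TMM. Leukocyte genes summed to 2918 and 3916 CPM, with 2 of 4 higher, and erythroid genes to 313 and 434 CPM, with 2 of 3 higher, beside 15.8% higher over all tested genes and 63.5% called in either direction at 100 CPM or more. Mir342 alone, at 2352 and 3252 CPM, gave most of the leukocyte sum and of its change. The other leukocyte call was Mir150, at 13.9 and 24.8 CPM, while Mir223 (log2 ratio 0.10) and Mir155 (0.02) did not pass with TMM. With library totals 3 of 3 tested multiciliated, 4 of 4 leukocyte and 2 of 3 erythroid genes were higher, beside 152 of all 455 tested genes. The part of these cells in the levels of the cluster was not tested. All 14 genes of the kidney and lower trunk list were detected, with sums of 294809 and 275668 CPM, led by Mir10a (164308 and 145054 CPM). Mir192 stood at 162 and 165 CPM. The list covers the lower trunk as well, so its sum does not mark kidney alone, and reads that map to several places are missing from this sum too. With TMM 4 of the 14 were higher and 5 lower in the exact binomial test, beside 15.8% and 17.8% over all tested genes.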

How the data were processed

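Small RNAs of 2 pooled kidney samples were sequenced. The deposited tables give raw counts of reads per microRNA gene on mm10 and annotation M4, per the accompanying text files. The sources used here name no aligner, counting program or trimming. Of the 3 count columns, the first equals the sum of the others in every gene row, and reads on the strand of the gene were used. Rows that name no gene held 55.2% and 51.5% of all reads (multi-mapping 28.0% and 25.3%) and were left out of library sizes and tests. Symbols and positions came from GENCODE M21 by Ensembl identifier (1894 of 1973 rows matched), mature and hairpin sequences from RefSeq on GRCm38.p6.

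CPM used sense reads in gene rows, and folds between genes used log2(CPM + 1). edgeR 4.0.16 gave TMM factors of 0.952 and 1.05, the BCV (intercept-only design, 455 genes with at least 10 reads summed) and exact tests at a set BCV. Quasi-likelihood tests could not be used, since 1 library a side leaves 0 residual degrees of freedom. DESeq2 1.42.0 gave size factors as an alternative. Exact binomial and Fisher's exact tests were run in scipy 1.17.1 after a check on simulated data, and both are two-sided. The members and lists were chosen with earlier results of these data known, so no pattern here is independent support for those results. Besides the members, the plan named the 2 genes nearest in level to each and microRNA genes within 1 Mb that hold at least 10 reads. It also named members of the fixed lists (up to 4 per list) and the extremes of clusters of 3 or more genes with every member at 100 CPM. Some genes are named outside this plan, among them Mir205, the Mir124a genes and pairs of genes from other clusters. Alternatives changed the scaling, strand, filter, pseudocount, length, assumed spread and replicates.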

Additional observations from a re-analysis of the deposited data

Results flagged for a closer look

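The opposite strand was not used for levels, and there Mir182 had 5 reads in replicate 2, above the 3 that a count of 0 allows. It had 0 in replicate 1, Mir183 had 3 and 2, and Mir96 had 0 in both. Over all gene rows the opposite strand held 2.14% and 2.24% of the reads.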

How the results depend on the processing

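Of 89 values recomputed under alternatives, 54 kept their direction and side of the threshold, moved by less than the replicate SD, or, for counts, stayed within 1.5 times. Calls in the marker lists were also counted with library totals, a choice made after the data were seen, which moved a count by over 1.5 times in 4 of the 6 lists. Without Mir10a in the total the cluster held 0.653% of the reads, and over every row, unmapped and multi-mapping reads included, 0.257%. Leaving out 1 library moved the log2 fold of Mir182 over Mir183 from -0.19 to 0.30, and per 100 nucleotides of annotated length it turned to -0.046. Per length the log2 folds over Mir96 were 1.958 for Mir182 and 2.00 for Mir183. Library totals ended the call of Mir96 (-0.019); with them 78.8% of 193 calls were higher in replicate 2, against 47.1% of 153 with TMM. With a BCV of 0.1, 0.2 or trended on abundance (the last chosen after the data were seen), the log2 ratios of Mir183 (-0.33), Mir96 (-0.16) and Mir182 (0.16) lost their calls, as did the differences between members of 0.49, 0.33 and -0.17. The largest, between Mir182 and Mir183, was 1.70, 0.852 and 1.54 times its SE in these settings. Genes called numbered 7, 3 and 3, since these settings add spread to the same counts. Leaving out a library gives no ratio between libraries. No paired analysis was possible because the series holds 1 group. Depth limits Mir96 most among the members, at 4597 reads in replicate 1.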

Other observations

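MicroRNA genes within 1 Mb of the cluster on chromosome 6 stood at very different levels. Of 5 other genes with a row, 2 held at least 10 reads. Mir335, in the imprinted Mest gene 571.562 kb away on the other strand, stood at 70219 and 61449 CPM, and its log2 ratio of replicate 2 to replicate 1 was -0.34, beside -0.33 for Mir183. Mir29a, a regulator of collagen genes 892.923 kb away, stood at 39.5 and 60.2 CPM with a log2 ratio of 0.46. Its neighbour Mir29b-1 had 2 and 1 reads, and the mature miR-29b comes from more than 1 gene copy, so its reads map to several places.

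Mir3475, whose 5′ product shares the seed of the 3′ arm of Mir96, had 23 and 27 reads, or 4.33 and 3.79 CPM. The tables count hairpins, so how many of the reads of Mir96 came from that arm was not measured.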
